A study of Mus musculus with 4 samples.

Results

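The genes described here are 32 genes of the hypoxia response and of glycolysis, chosen by name, and all array targets annotated to them. They are represented by 82 of the 44170 targets on each array and by 32 of 24172 genes, with 1 target standing for each gene. Among them are 15 glycolytic enzymes, 5 glucose transporters and regulators of glycolytic flux, and 12 other genes known to be induced by low oxygen. The choice was made by gene name, with earlier results of these data known.

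When oxygen is scarce, the alpha subunits of the hypoxia-inducible factors (HIF) escape hydroxylation by the Egln prolyl hydroxylases, are not handed to the von Hippel-Lindau ubiquitin ligase, and accumulate. They pair with Arnt and bind a core motif in promoters and enhancers of their targets. HIF targets include most enzymes of glycolysis, glucose transporters, and genes for blood vessel growth, pH control, mitophagy and collagen maturation. Glycolysis turns glucose into pyruvate, and tumour cell lines commonly use it heavily even with oxygen present.

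The RNA was labelled as coming from Neuro2a (N2a), a mouse neuroblastoma line grown in serum-containing medium. One group of 2 arrays was labelled as cells given a scramble siRNA and the other group of 2 as cells given an siRNA against Men1, which encodes menin, a scaffold of histone methyltransferase complexes. The cells of both groups are given as the same line and as transfected, the siRNA being the stated difference. The sources used here do not give the siRNA sequences, the dose, the time after transfection, the oxygen level or whether replicates came from separate cultures. The p-values below therefore reflect array-to-array spread alone, possibly of technical origin.

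The values are hybridisation intensities on a linear scale, and an intensity of 100 is taken as the level above background. The random control probes read 42.8 to 52.3 per array. Men1 itself read 6985 and 6222 on scramble siRNA replicates 1 and 2, and 2764 and 4109 on Men1 siRNA replicates 1 and 2, at its brighter target. Its log2 change, Men1 siRNA minus scramble siRNA, was -0.97 ± 0.36 (SE, n = 2 arrays per group; limma adjusted p = 0.336 over all targets), and that of its other target was -0.19 ± 0.33. Markers of other cell types moved with the groups. Summed intensities of 6 epithelial markers were 23672 and 16285 with scramble siRNA against 831 and 1814 with Men1 siRNA, with 6 of 6 changes negative and 4 of them past the threshold. The 9 fibroblast markers summed to 45412 and 45897 against 9366 and 9075, with 9 of 9 negative and 3 past the threshold, and the 6 endothelial markers to 8560 and 5145 against 1465 and 1467, with 6 of 6 negative and 0 past it. The 9 pan-neuronal markers measured summed to 75530.5 and 92459.8 against 106945 and 109805, with 9 of 9 changes positive and 0 past the threshold. Of the 14 sympathoadrenal markers, which should define a neuroblastoma line, 11 were measured, and their sums were 8255 and 10799 against 15437 and 12993, with 3 of 11 changes negative and 0 past the threshold. The part of these shifts in the results below was not tested, nor was whether the arrays hold RNA of N2a cells alone. A smaller share of cells of a type and less RNA per cell cannot be told apart in such bulk samples.

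The DNA motif that HIF binds has the core ACGTG or GCGTG. RefSeq promoter windows, from 250 bases before to 50 bases after an annotated start on build GRCm38.p6, were found by symbol for 29 of the 32 genes, in 40 windows, but not for Slc2a3, Ndrg1 and Bnip3l. On either strand, ACGTG occurred in 22 of these 40 windows and in 19.6% of all 32851 mouse windows of the same length. Counted per gene, 9 of 10 other hypoxia targets, 9 of 15 glycolytic enzymes and 2 of 4 transporters and regulators held it in at least 1 window, against 21.8% of 27025 genes. GCGTG occurred in 20 of the 29 genes and in 35.2% of all genes. A match is a description of the letters, and most of these genes were chosen as known targets of HIF.

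For 6 genes a window is shown, each written along its own gene's strand, with ACGTG, or CACGT where the motif lies on the other strand, in capitals. A capital CACGTG is the overlap of a match on each strand. The windows of Egln3, Hk2 and Slc2a1 belong to genes that read lower in the Men1 siRNA arrays, and those of Pgk1, Ldha and Gapdh to enzymes with changes of 0.11, -0.54 and -0.085. All 6 were chosen among windows that hold ACGTG.
Egln3 promoter, chr12:54203825-54204124 (- strand): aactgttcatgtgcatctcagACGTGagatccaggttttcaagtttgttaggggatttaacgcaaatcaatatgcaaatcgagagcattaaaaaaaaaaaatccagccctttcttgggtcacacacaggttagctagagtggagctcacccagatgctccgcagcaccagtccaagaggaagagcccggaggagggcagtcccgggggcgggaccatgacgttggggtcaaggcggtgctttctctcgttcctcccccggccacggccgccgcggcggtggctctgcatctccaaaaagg
Hk2 promoter, chr6:82774405-82774704 (- strand): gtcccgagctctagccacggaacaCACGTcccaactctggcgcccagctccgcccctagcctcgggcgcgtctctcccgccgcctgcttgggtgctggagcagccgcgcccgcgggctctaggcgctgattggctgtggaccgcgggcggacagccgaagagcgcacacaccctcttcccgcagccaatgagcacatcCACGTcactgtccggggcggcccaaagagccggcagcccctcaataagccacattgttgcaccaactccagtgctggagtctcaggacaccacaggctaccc
Slc2a1 promoter, chr4:119108495-119108794 (+ strand): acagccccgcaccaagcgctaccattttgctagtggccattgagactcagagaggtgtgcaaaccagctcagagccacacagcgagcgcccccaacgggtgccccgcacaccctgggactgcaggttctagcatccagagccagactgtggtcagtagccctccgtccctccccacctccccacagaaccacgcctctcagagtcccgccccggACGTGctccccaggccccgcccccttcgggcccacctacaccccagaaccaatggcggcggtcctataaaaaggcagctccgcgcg
Pgk1 promoter, chrX:106186850-106187149 (+ strand): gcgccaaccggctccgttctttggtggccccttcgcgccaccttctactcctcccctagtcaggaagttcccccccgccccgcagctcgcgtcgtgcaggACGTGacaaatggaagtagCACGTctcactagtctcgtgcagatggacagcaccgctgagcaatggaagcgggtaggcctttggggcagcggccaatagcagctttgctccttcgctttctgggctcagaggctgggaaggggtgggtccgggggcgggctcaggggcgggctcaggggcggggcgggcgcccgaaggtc
Ldha promoter, chr7:46845554-46845853 (+ strand): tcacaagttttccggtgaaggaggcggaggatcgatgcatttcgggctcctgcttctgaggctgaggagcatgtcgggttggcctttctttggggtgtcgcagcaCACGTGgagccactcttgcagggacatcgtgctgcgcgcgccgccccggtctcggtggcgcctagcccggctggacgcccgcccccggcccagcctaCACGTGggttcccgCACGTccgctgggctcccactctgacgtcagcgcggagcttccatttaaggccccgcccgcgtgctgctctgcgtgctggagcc
Gapdh promoter, chr6:125165724-125166023 (- strand): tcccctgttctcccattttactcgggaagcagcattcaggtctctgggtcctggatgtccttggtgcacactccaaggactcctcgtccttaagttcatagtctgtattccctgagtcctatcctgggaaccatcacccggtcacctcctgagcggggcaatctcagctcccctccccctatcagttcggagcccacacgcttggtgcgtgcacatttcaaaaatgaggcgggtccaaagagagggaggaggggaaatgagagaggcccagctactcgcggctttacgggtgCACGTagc
The window of Adm held no ACGTG and 2 copies of GCGTG, and those of Tpi1, Gpi1 and Eno2 held neither core. Positions before the start base are negative, those from it onward are positive, and no position 0 is used. The first match began at position -229 in Egln3, -226 in Hk2, -36 in Slc2a1, -150 in Pgk1, -145 in Ldha and 43 in Gapdh. The Ldha window held 5 matches, of which 4 formed 2 copies of CACGTG, and the windows of Hk2 and Pgk1 held 2 each.

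None of the 32 genes passed the threshold of an adjusted p under 0.05 (0 of 32, limma with Benjamini-Hochberg adjustment), where 0.389% of all genes did. At an unadjusted p under 0.05, 7 of 32 were counted, where 14.2% of all genes were. Of these, 6 read lower in the Men1 siRNA arrays (7.74% of all genes), namely Egln3, Adm, Vegfa, Slc2a1, Hk2 and Pkm, and 1 read higher (6.47%), Eno2. The Men1 siRNA readings were both under the lower scramble siRNA reading for 13 of 32 genes (21.7% of all genes) and both over the higher one for 2 of 32 (25.8%). A log2 change of -0.5 or lower was found for 12 of 32 genes (19.4%), and one of 0.5 or higher for 1 of 32 (23.2%). More of the genes read lower than higher with Men1 siRNA, and none passed the test at 2 arrays per group. Taking every target alone, 0 of 82 passed (0.34% of all targets) and 13 of 82 had an unadjusted p under 0.05 (13.6%).

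**Figure D1:**
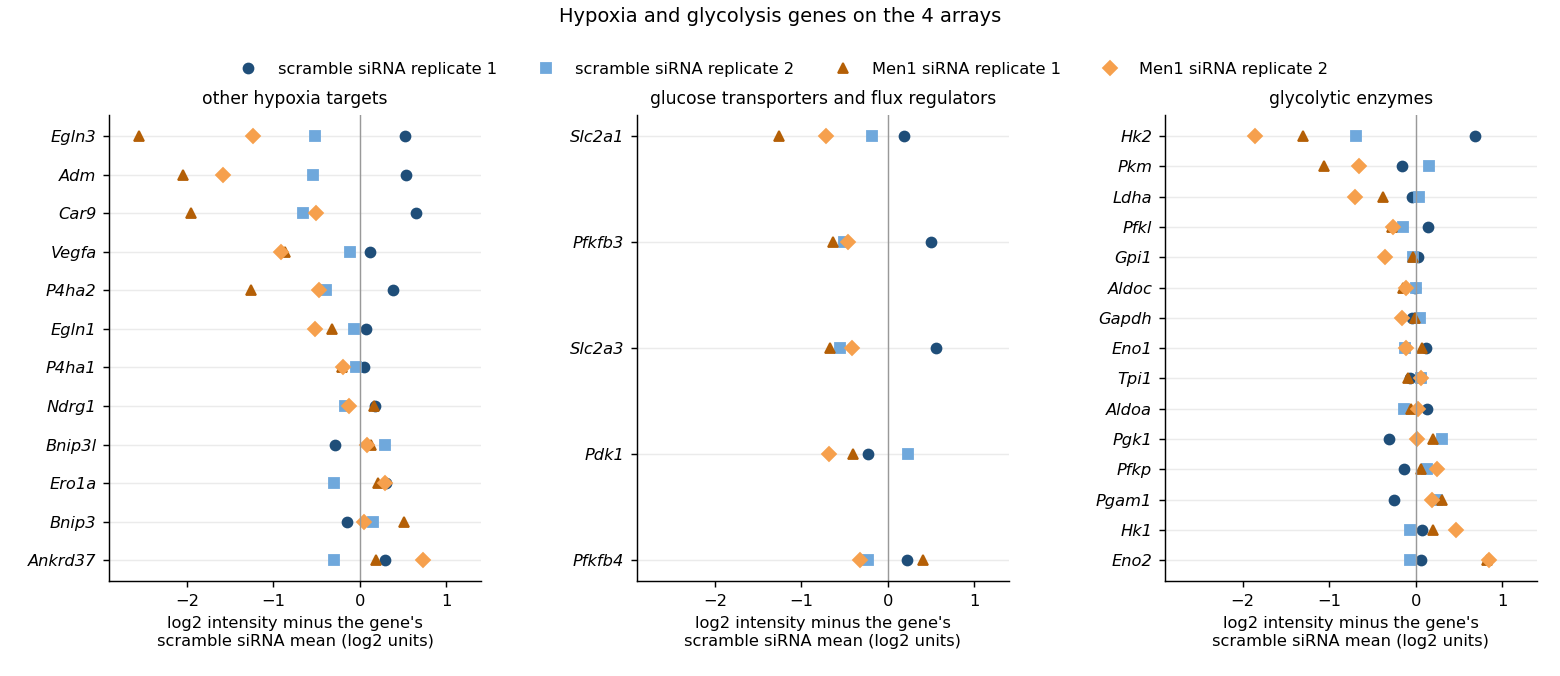
Log2 intensity of each of the 32 genes on the 4 arrays, less that gene's mean over the scramble siRNA arrays, by class. Egln3, Adm and Hk2 lie furthest to the left in the Men1 siRNA arrays, most enzymes lie near 0, and for Hk2, Car9 and Slc2a3, among others, the scramble siRNA arrays stand more than 1 log2 unit apart.

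Among the 12 other hypoxia targets, the prolyl hydroxylase Egln3, adrenomedullin (Adm), carbonic anhydrase 9 (Car9), Vegfa and P4ha2 had the lowest readings relative to scramble siRNA, and the rest differed by less than 0.5 log2 units. Egln3 (chromosome 12, 55281249 to 55304777 on build MM9), whose product hydroxylates HIF alpha subunits and which is itself a HIF target, read 2007 and 978 on scramble siRNA replicates 1 and 2 and 239 and 595 on Men1 siRNA replicates 1 and 2. The groups did not overlap, with scramble siRNA replicate 1 at 2.05 times replicate 2. The log2 change was -1.89 ± 0.58 (SE), with a 95% interval of -3.35 to -0.44 and a limma adjusted p of 0.264. The other 3 targets of Egln3 had changes of -0.88, -0.30 and -1.02, so all 4 were negative but of unequal size.

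Adm (chromosome 7, 117771184 to 117773334), a vasodilating peptide hormone gene with a single target, read 610.1 and 289.8 with scramble siRNA against 102 and 141 with Men1 siRNA. The groups did not overlap, and the log2 change was -1.81 ± 0.46 (95% interval -2.97 to -0.66), with an adjusted p of 0.205, the lowest among the 32 genes. Car9 (chromosome 4, 43519904 to 43526266), a membrane enzyme that acidifies the surroundings of hypoxic cells, read 229 and 92.5 with scramble siRNA against 37.5 and 102 with Men1 siRNA. Its groups overlapped, and 1 array of each group lay under 100, so the size of its change, -1.23 ± 0.66 (adjusted p = 0.456), is less certain.

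Vegfa (chromosome 17, 46153942 to 46162112), the main growth factor for blood vessels, read 1661 and 1422 with scramble siRNA against 844 and 815 with Men1 siRNA. Here the arrays of each group lay close together and the groups were apart, with a log2 change of -0.89 ± 0.31 (95% interval -1.66 to -0.12, adjusted p = 0.302). Its second target read 1742 and 1223 against 678 and 668, a change of -1.12, and the remaining one 343 and 235 against 100.02 and 148, a change of -1.22. All 3 targets of Vegfa thus had non-overlapping groups and changes of similar size.

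P4ha1 and P4ha2 encode catalytic subunits of collagen prolyl 4-hydroxylase, which stabilises the collagen triple helix. P4ha2 read 733 and 429 with scramble siRNA against 235 and 403 with Men1 siRNA, giving a log2 change of -0.87 ± 0.45 (adjusted p = 0.445). Of the 4 targets of P4ha2, 2 had negative and 2 positive changes, from -0.87 at the target that stands for the gene to 0.36. P4ha1 read 2019.5 and 1896 against 1702 and 1709, a change of -0.20 ± 0.30 (adjusted p = 0.801), and its other target had 0.18. Both P4ha2 and P4ha1 had non-overlapping groups at the target that stands for them, with scramble siRNA replicate 2 and Men1 siRNA replicate 2 of P4ha2 close together.

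Egln1, the main oxygen-sensing prolyl hydroxylase, read 878 and 803 with scramble siRNA against 673 and 584 with Men1 siRNA. Its groups did not overlap, and the change was -0.42 ± 0.31 (95% interval -1.19 to 0.35, adjusted p = 0.585). The mitophagy receptors Bnip3 and Bnip3l gave overlapping groups. Bnip3 read 1271 and 1574 against 2014 and 1457, a change of 0.28 ± 0.35 (adjusted p = 0.75), and Bnip3l read 4494 and 6710.2 against 6009 and 5795, a change of 0.10 ± 0.35 (adjusted p = 0.915). The stress-response gene Ndrg1 had 0.021 ± 0.33, the endoplasmic reticulum oxidase Ero1a 0.24 ± 0.35 and the ankyrin repeat gene Ankrd37 0.46 ± 0.39. For these 5 genes the 95% intervals reached from between -0.80 and -0.50 to between 0.85 and 1.42. Changes within a gene's interval are compatible with its readings on the 4 arrays.

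Among the 5 transporters and flux regulators, 4 had log2 changes from -0.99 to -0.54 and Pfkfb4 had 0.045. Slc2a1 (chromosome 4, 118781380 to 118809934), the widely expressed glucose transporter, read 3509.7 and 2708 with scramble siRNA against 1287 and 1884 with Men1 siRNA. Its groups did not overlap, and the change was -0.99 ± 0.36 (95% interval -1.89 to -0.085, adjusted p = 0.319) at its only target. Slc2a3, the high-affinity transporter typical of neurons, read 2893 and 1342 against 1243 and 1478. Scramble siRNA replicate 1 alone stood apart, and the change of -0.54 ± 0.45 (adjusted p = 0.632) was 0.014 without that array.

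Pfkfb3, which makes a regulatory fructose bisphosphate that activates phosphofructokinase, read 1824 and 908 with scramble siRNA against 831 and 934 with Men1 siRNA. Again scramble siRNA replicate 1 alone stood apart, and the change of -0.55 ± 0.43 (adjusted p = 0.607) was -0.043 without it. All 5 targets of Pfkfb3 had negative changes, between -1.0 and -0.41. Pfkfb4, a related enzyme, read 343 and 251.4 against 390.1 and 235, with overlapping groups, and its 3 targets had changes of 0.045, 0.046 and 0.32. Pdk1, the kinase that inhibits mitochondrial pyruvate dehydrogenase, read 576 and 794 with scramble siRNA against 513 and 423 with Men1 siRNA. Its change was -0.54 ± 0.34 (limma adjusted p = 0.528) without overlap of the groups, and ranged from -0.77 to -0.31 with each array left out.

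Of the 15 glycolytic enzymes, 10 had log2 changes between -0.27 and 0.25, 3 were at -0.54 or lower (Hk2, Pkm and Ldha), Hk1 was at 0.33 and Eno2 at 0.84. Hk2 (chromosome 6, 82675020 to 82724367), the inducible hexokinase of tumours and muscle, read 1139.6 and 439 with scramble siRNA against 288 and 195 with Men1 siRNA. The groups did not overlap, although the scramble siRNA arrays differed from each other by 2.60 times. The change was -1.58 ± 0.54 (95% interval -2.92 to -0.24, adjusted p = 0.295), and ranged from -2.27 without scramble siRNA replicate 2 to -0.89 without replicate 1.

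Pkm (chromosome 9, 59504414 to 59527182) encodes pyruvate kinase, the last step of glycolysis. It read 28931 and 35979 with scramble siRNA against 15511 and 20498 with Men1 siRNA, a non-overlapping change of -0.86 ± 0.34 (95% interval -1.70 to -0.013, adjusted p = 0.346). Its other 3 targets had changes of -0.50, -0.14 and 0.20, so the targets of Pkm differed in sign. Ldha, which reduces pyruvate to lactate, read 18025 and 18969 against 14261 and 11390.1, a change of -0.54 ± 0.32 (adjusted p = 0.499), and its other target, also with groups apart, had -0.37.

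Eno2 (chromosome 6, 124710072 to 124719527), the neuron-enriched enolase, was the only member of the 32 with a change of 0.5 or higher. It read 3329.8 and 3033 with scramble siRNA against 5637 and 5729 with Men1 siRNA, a change of 0.84 ± 0.30 (95% interval 0.080 to 1.60, adjusted p = 0.315). Its second target read 441 and 715 against 1309 and 1226, a change of 1.17, so both targets had groups apart and higher readings with Men1 siRNA. The pan-neuronal markers measured had a median log2 change of 0.49 on the same arrays, and their part in the Eno2 reading was not tested.

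The remaining enzymes had changes nearer 0. Glyceraldehyde 3-phosphate dehydrogenase, Gapdh, had a change of -0.085 ± 0.31 and its 9 targets lay between -0.085 and 0.30. Triose phosphate isomerase, Tpi1, had -0.011 ± 0.31 with a 95% interval of -0.78 to 0.75, and phosphoglycerate kinase, Pgk1, had 0.11 ± 0.36. Glucose phosphate isomerase, Gpi1, had -0.19 ± 0.32, with 0.21 at its other target. Pgam1, phosphoglycerate mutase, had 0.25 ± 0.34 at a target annotated to chromosome 7 (28254092 to 28254479 on MM9), whereas the target on chromosome 19 (41986412 to 41993150) read 11094 and 10665 with scramble siRNA against 11693 and 6013 with Men1 siRNA, a change of -0.38. Intervals of about this width do not show that these enzymes were equal between groups. Genes of this pathway such as Gapdh have near-identical processed pseudogenes, and whether their probes read more than 1 transcript was not tested.

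**Figure D2:**
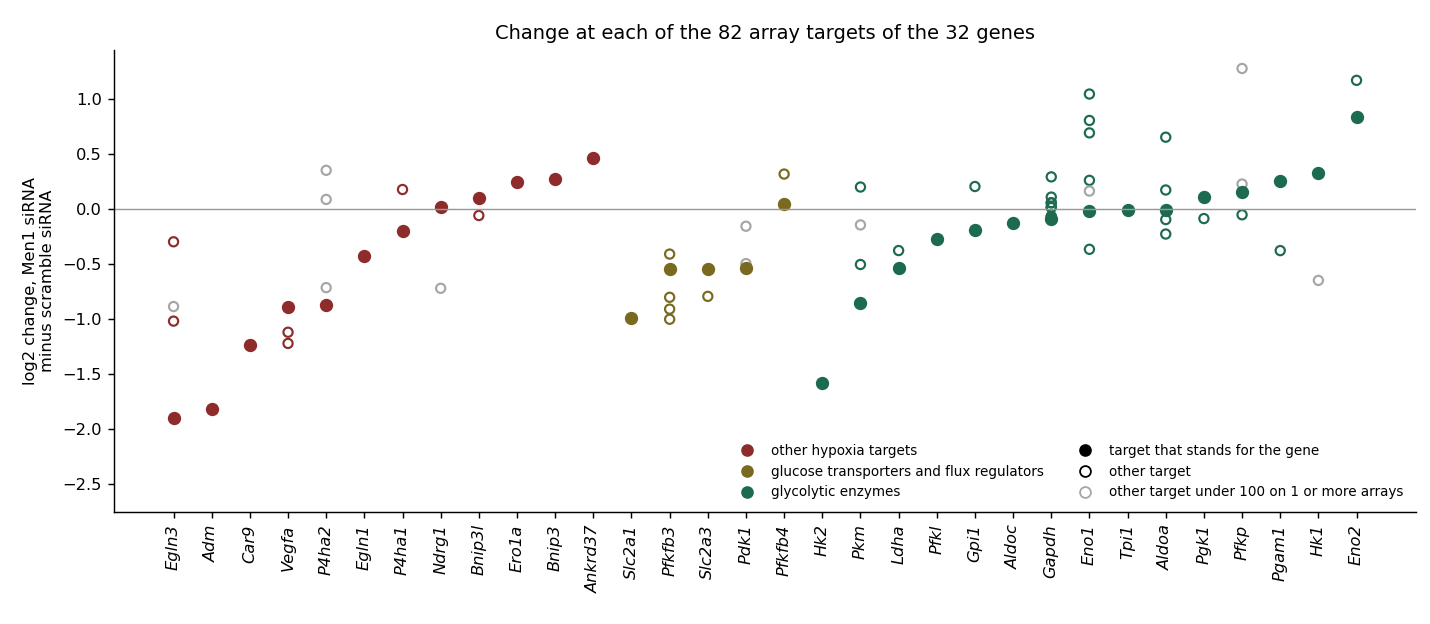
Log2 change, Men1 siRNA minus scramble siRNA, at each of the 82 targets, by gene and class. The target that stands for the gene is filled in the class colour, and other targets under 100 on 1 or more arrays are grey. The filled target of Car9 lay under 100 on 2 arrays. All targets of Egln3, Vegfa, Pfkfb3, Slc2a3 and Ldha are negative and both of Eno2 are positive, while the targets of Eno1 run from -0.36 to 1.05.

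The targets of a gene did not always give the same sign. Of the 21 genes with more than 1 target, 13 had targets of both signs. The widest case at bright targets was Eno1, the widely expressed enolase, whose 7 targets had changes from -0.36 to 1.05. The brightest Eno1 target read 26356 and 22287 with scramble siRNA against 25505 and 22528 with Men1 siRNA, a change of -0.016 ± 0.32 (adjusted p = 0.988). The target at the upper end read 10097 and 12918 against 23811 and 23441, a change of 1.05 ± 0.34 (limma adjusted p = 0.286 over all targets). A single value for Eno1 therefore depends on the target taken.

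Related genes with the same biochemical role were set side by side in 9 pairs, and the difference within a pair was not tested. At the targets that stand for them, the hexokinases had opposite signs. Hk1, the housekeeping form, read 9047 and 8213 with scramble siRNA against 9906 and 11906 with Men1 siRNA. Its change was 0.33 ± 0.31 (limma adjusted p = 0.671), against -1.58 for Hk2, whereas the other, dimmer Hk1 target had -0.65. The enolases had -0.016 for Eno1, whose targets ran from -0.36 to 1.05, and 0.84 for Eno2. The prolyl hydroxylases were both negative, at -0.42 for Egln1 and -1.89 for Egln3, as were the glucose transporters, at -0.99 for Slc2a1 and -0.54 for Slc2a3.

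Pfkl and Pfkp, both phosphofructokinases, lay near 0. Pfkl, the liver type, read 5883 and 4800.0 against 4398 and 4425, a change of -0.27 ± 0.31, and Pfkp, the platelet type, read 2859 and 3419 against 3255 and 3717, a change of 0.15 ± 0.32. The muscle type, Pfkm, is not among the 32 genes and was named after its values were seen. It read 5924 and 5765 against 8109 and 8969, a change of 0.55 ± 0.31 (adjusted p = 0.477) with groups apart. Of the aldolases, which split the product of phosphofructokinase, Aldoa read 27570.2 and 23019 against 24357 and 25687, a change of -0.010 ± 0.31. Aldoc, the brain form, read 4895 and 4951 against 4461 and 4571, a change of -0.12 ± 0.30 with groups that did not overlap. None of Pfkl, Pfkp, Aldoa and Aldoc passed the test, with adjusted p between 0.732 and 0.991.

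**Figure D3:**
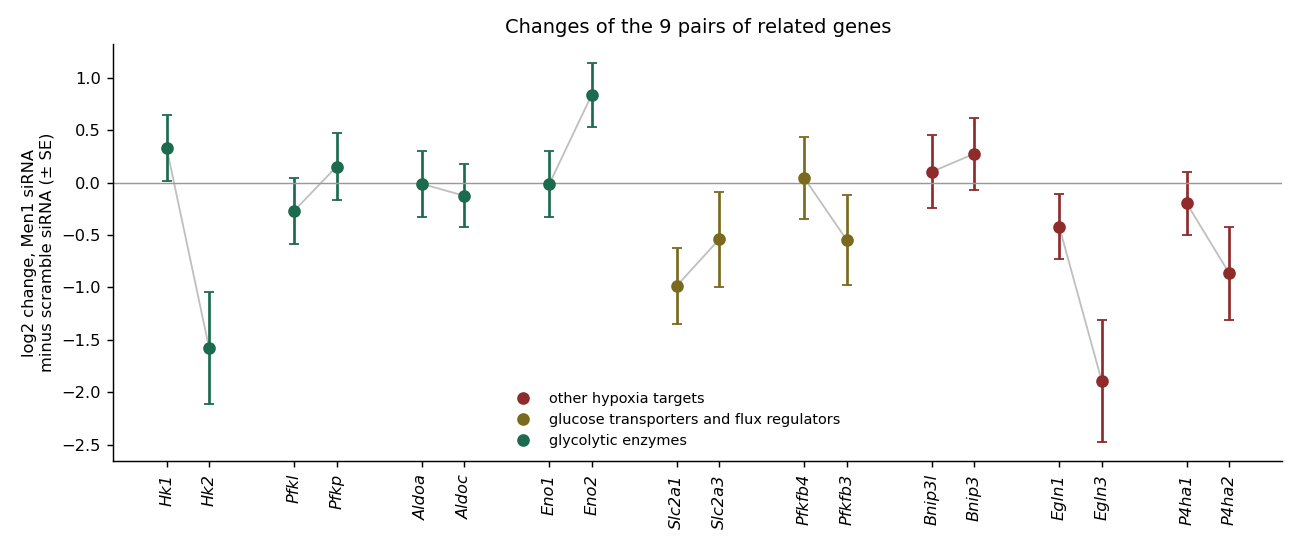
Log2 change with its moderated standard error for both genes of 9 related pairs, each at the target that stands for the gene. The hexokinases Hk1 and Hk2 lie on opposite sides of 0 at 0.33 and -1.58, and Egln3 at -1.89 lies below Egln1 at -0.42.

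Glycolytic enzymes were then contrasted with the other hypoxia targets. The median log2 change was -0.016 over the 15 enzymes, -0.54 over the 5 transporters and flux regulators, -0.31 over the 12 other hypoxia targets and 0.062 over all 24172 genes. Negative changes were found in 10 of 15 enzymes, 4 of 5 transporters and regulators and 7 of 12 other hypoxia targets, against 45.5% of all genes. Changes of -0.5 or lower were found in 3 of 15 enzymes, 4 of 5 transporters and regulators and 5 of 12 other hypoxia targets, against 19.4% of all genes. Without scramble siRNA replicate 1, the median of the transporters and regulators was -0.043 and 2 of 5 had a change of -0.5 or lower; without Men1 siRNA replicate 1 they were -0.46 and 2 of 5, and without scramble siRNA replicate 2 the median was -1.05. The Men1 siRNA readings were both under the lower scramble siRNA reading in 5 of 15 enzymes, 2 of 5 transporters and regulators and 6 of 12 other hypoxia targets, against 21.7% of all genes. Without Hk2 the enzyme median was -0.013, so the enzymes as a class lay near the median of all genes, with Hk2, Pkm, Ldha and Eno2 away from it. The classes differed in brightness and spread as well: the median intensity was 9675 for the enzymes and 726 for the other hypoxia targets, and the median SD within groups was 0.15 and 0.30 log2 units.

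The classes also differed in how far the scramble siRNA arrays stood apart. Relative to each gene's scramble siRNA mean, the median of the 12 other hypoxia targets was 0.24 on scramble siRNA replicate 1, -0.24 on scramble siRNA replicate 2, -0.26 on Men1 siRNA replicate 1 and -0.34 on Men1 siRNA replicate 2. For the 5 transporters and regulators the same medians were 0.22, -0.22, -0.63 and -0.46, and for the 15 enzymes -0.0082, 0.0082, -0.026 and -0.11. Scramble siRNA replicate 2 thus lay below replicate 1 in the medians of the other hypoxia targets and of the transporters and regulators. Centring on the scramble siRNA mean makes the 2 scramble siRNA medians mirror each other, and each median can rest on different genes. With scramble siRNA replicate 2 as the only reference, the median change of the 12 other hypoxia targets was -0.27, against -0.31 with both. It was -0.37 without scramble siRNA replicate 2, -0.34 without Men1 siRNA replicate 1 and -0.26 without Men1 siRNA replicate 2.

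Single genes showed the same split of the scramble siRNA arrays. Replicate 1 was at least 1.5 times replicate 2 for 6 of 12 other hypoxia targets, 2 of 5 transporters and regulators and 1 of 15 enzymes, against 15.0% of all genes. The reverse held for 0 of the 17 genes other than enzymes and for 19.1% of all genes. The ratio was 2.60 for Hk2, 2.47 for Car9, 2.16 for Slc2a3, 2.11 for Adm, 2.05 for Egln3, 2.01 for Pfkfb3, 1.71 for P4ha2, 1.52 for Ero1a and 1.51 for Ankrd37. Scramble siRNA replicate 1 was the highest of the 4 arrays for 9 of 12 other hypoxia targets, 3 of 5 transporters and regulators and 5 of 15 enzymes, against 24.0% of all genes.

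The size of several of the lower readings depended on single arrays of both groups. Without scramble siRNA replicate 1 the change was -1.38 for Egln3, -1.28 for Adm, -0.58 for Car9 and -0.48 for P4ha2. Without Men1 siRNA replicate 1 it was -1.24 for Egln3, -1.58 for Adm, -0.51 for Car9 and -0.48 for P4ha2. Without scramble siRNA replicate 2, the change was -2.41 for Egln3 and -2.35 for Adm. The changes of Vegfa, Slc2a1 and Pkm moved less, with ranges over all arrays left out in turn of -1.0 to -0.78, -1.26 to -0.71 and -1.06 to -0.65. Endothelial and epithelial marker sums were also higher on scramble siRNA replicate 1 than on replicate 2, at 8560 against 5145 and 23672 against 16285. The same held for the 5 erythroid markers, at 25719 against 13269, and the 5 immune markers, at 5138 against 3368. With Men1 siRNA the erythroid sums were 33483 and 40010.3, with 0 of 5 changes negative, and the immune sums 1753 and 2144, with 3 of 5 negative, and 0 markers of either list passed the threshold. The part of these 4 lists in the gene readings was not tested.

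**Figure D4:**
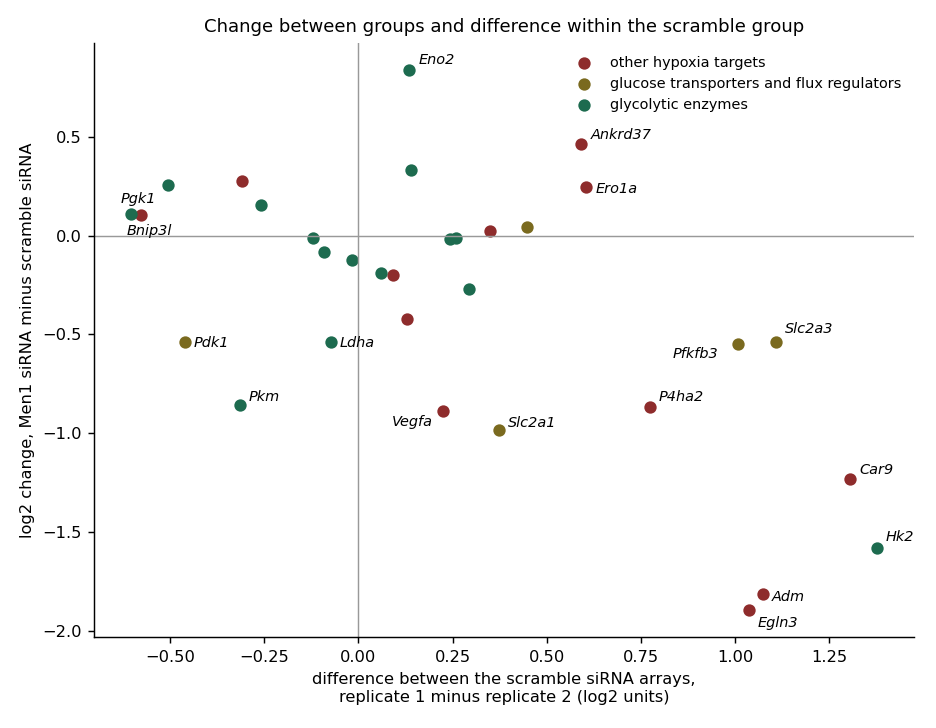
Log2 change between groups against the log2 difference between scramble siRNA replicates 1 and 2, 1 point per gene, with both axes using the scramble siRNA arrays. Hk2, Car9, Adm and Egln3 lie at the lower right, with low changes and a large difference between the scramble siRNA arrays, whereas Vegfa, Slc2a1 and Pkm have low changes with a difference under 0.40 log2 units.

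The HIF subunits and their regulators were read from a list of 17 genes, of which 0 passed the threshold and 2 were lower (7.74% of all genes) and 2 higher (6.47%) at an unadjusted p under 0.05, with a median change of 0.17. The Men1 siRNA readings were both lower for 3 of 17 (21.7% of all genes) and both higher for 9 of 17 (25.8%). The alpha subunit Epas1 read 1761 and 1799 with scramble siRNA against 733 and 962 with Men1 siRNA, a change of -1.08 ± 0.32 (adjusted p = 0.254). The shared partner Arnt read 1384 and 995 against 523 and 673, a change of -0.98 ± 0.35 (adjusted p = 0.31). Both genes had groups that did not overlap. Of 5 Arnt targets, 3 were negative, at -0.98, -0.82 and -1.31, whereas the others had 0.40 and 0.070, the last under 100 on all arrays. These targets, and those of Hif1a below, were named after their values were seen.

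Another alpha subunit, Hif1a, read 1285 and 1105 with scramble siRNA against 993 and 812 with Men1 siRNA, a change of -0.41 ± 0.32 (adjusted p = 0.608), at its brightest target. Its other 4 targets differed in sign, at -0.34, -1.21, 0.32 and 1.10, and the last 3 of these lay under 100 on 1 or more arrays. Hif1a protein is set mainly by its stability, which these arrays do not measure. The remaining subunits were also named after their values were seen: Hif3a had -0.66 ± 0.51 with overlapping groups, and Arnt2 had 0.81 ± 0.40 with groups apart. Vhl, the substrate receptor of the ligase, read 591 and 1106 against 1068 and 686, with overlapping groups and a change of 0.082 ± 0.45. Eloc, an elongin subunit of the Vhl ligase, read 927 and 1336 against 2219 and 1923 (0.89 ± 0.35, adjusted p = 0.34), and Siah2, a ligase for prolyl hydroxylases, read 433 and 654 against 956 and 1007 (0.88 ± 0.35, adjusted p = 0.348).

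A further list held 33 other hypoxia targets, with a median change of -0.10, 0 past the threshold and 7 lower (7.74% of all genes) and 2 higher (6.47%) at an unadjusted p under 0.05. Its smallest p belonged to Zfp395, a zinc finger gene induced by hypoxia, which read 1978 and 1996 with scramble siRNA against 309 and 439.7 with Men1 siRNA. The change was -2.43 ± 0.34 (adjusted p = 0.0746), with the scramble siRNA arrays close together. Loxl2, a collagen cross-linking oxidase, read 278 and 293 against 80.2 and 57.9, at least 2.85-fold lower with Men1 siRNA (adjusted p = 0.0907). Igfbp3, a binding protein for insulin-like growth factors, had -1.40 ± 0.35 (adjusted p = 0.196) and the lipoprotein receptor Vldlr 1.19 ± 0.32 (adjusted p = 0.221).

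The other 31 genes of glucose use had a median change of 0.25, with 0 past the threshold and 3 lower (7.74% of all genes) and 5 higher (6.47%) at an unadjusted p under 0.05. Slc16a3, the lactate exporter induced by HIF, read 218 and 191 with scramble siRNA against 82.3 and 84.7 with Men1 siRNA, at least 2.04-fold lower (adjusted p = 0.184). The transporter Slc2a4, known from muscle and fat, read 280.3 and 391 against 1462 and 634, a change of 1.54 ± 0.49 (adjusted p = 0.275). The 4 adipocyte markers measured, with 4 of 4 changes positive and 2 past the threshold, summed to 623 and 466 with scramble siRNA against 7157 and 5229.9 with Men1 siRNA, and their part in the Slc2a4 reading was not tested. A pair of dim genes completed the 4 of smallest p: the hexokinase-like Hkdc1 read 26 and 50.4 against 112 and 154, at least 1.31-fold higher (adjusted p = 0.182), and Slc2a2, the transporter of liver and pancreas, read 61.8 and 70.5 against 126 and 193, at least 1.56-fold higher (adjusted p = 0.243).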

How the data were processed

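Single-colour arrays of 2 scramble siRNA and 2 Men1 siRNA samples were read from the deposited per-array files. Their values are intensities on a linear scale, 1 per target, summarised by the authors with robust multi-array averaging per the file headers. The series text names an Agilent array, but the labelling protocol and the file format are those of NimbleGen. The sources used here give neither scanner settings nor background correction. All 82 targets held 3 probes.

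Tests used log2 intensity without a pseudocount, and the target with the highest mean stood for each gene (24172 genes). Symbols came from the array annotation on MM9 and were updated by gene ID (21583 of 24204 matched). Groups were compared with limma 3.58.1 in R 4.3.3 (lmFit and eBayes, two-sided, Benjamini-Hochberg over all genes or all targets), with a threshold of 0.05, and the script was tested on simulated data. An exact permutation of 4 arrays could not give a two-sided p under 0.333. The number of arrays limits the precision. The level of 100 was taken because the authors' value table holds exactly the 20620 targets reaching 100 on all 4 arrays. For a group with both arrays under 100, folds are bounds, the brighter group's mean against 100 or the dim array's own value if higher. That table's 2 scramble siRNA columns held each other's per-array values for 20617 targets. Image names inside the files also number some arrays differently from the titles, so replicate numbers are those of the titles only.

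Deviations of same-numbered arrays from their group means had a correlation of -0.17 over 24172 genes. Array log2 values over all targets correlated at 0.945 and 0.948 within groups and 0.901 to 0.934 between groups. Array medians were 146 to 151, and 40.2% to 41.0% of targets lay under 100 per array.

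Per-array values are given for members with a log2 change of at least 0.5 in size and for the genes of 9 related pairs, and of other lists for genes past the threshold or the 4 with the smallest unadjusted p. Hif1a, Epas1, Arnt, Vhl and Men1 are named besides. Hif3a, Arnt2, Pfkm and targets whose signs differ from their gene's were named after their values were seen. Members and lists were chosen with earlier results of these data known. Alternatives were a replicate block, each array left out, other normalizations, the value table, a dim filter, other targets, priors, a pseudocount of 32, a threshold of 0.01 and other class members. A crossed block and a floor at 100 were added after seeing the data. Promoters came from RefSeq (GRCm38.p6). Python 3.11.15 with pandas 2.3.3, numpy 2.4.6 and matplotlib 3.10.9 was used.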

Additional observations from a re-analysis of the deposited data

How the results depend on the processing

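No gene of the 32 passed the threshold under any of 17 alternatives, the smallest adjusted p being 0.059. Of 561 comparisons of a member's change with an alternative, 510 kept their sign, and 15 members kept it throughout. The titles number replicates 1 and 2 in both groups. With the replicate number as a block, 0 of 32 members and 69 of all genes passed (94 without it), and 3 of 32 members and 2693 of all genes had an unadjusted p under 0.05 (7 and 3435 without it); the correlation of -0.17 does not show pairing, and with the crossed block 0 of all genes passed adjustment and 3980 had an unadjusted p under 0.05. Over all genes, 0 passed with any array left out (2105 to 3357 at an unadjusted p under 0.05, with the lone array assumed to vary like the others), 8 with a floor at 100, 252 with a pseudocount of 32, 289 with the dim filter, 422 in the value table and 711 with a trended prior, which tests genes against a variance that depends on intensity.

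With the trended prior, 1 member target passed, the Eno1 target at 1.05 (adjusted p = 0.0256), and 3 of the further hypoxia targets did, against 2 with the dim filter and 1 each in the value table and with the pseudocount of 32. The cause was not tested. The median of the enzymes was -0.070 with cyclic loess, 0.0040 with median and -0.037 with quantile normalization, -0.10 with the transporters and regulators added, and -0.12 to -0.026 with each array left out. The median of the other hypoxia targets was -0.20 in the value table and -0.54 with the transporters and regulators added. Median normalization turned Aldoa to 0.0097, Tpi1 to 0.0094 and Eno1 to 0.0040, and Ndrg1 became -0.045 with cyclic loess and -0.0078 with quantile normalization.

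As the mean of all targets, Hk1 was -0.16, Gpi1 0.0090, Aldoa 0.10, Gapdh 0.039, Pgam1 -0.061, Eno1 0.37 and Ndrg1 -0.35. Single targets gave -0.65 for Hk1, 0.21 for Gpi1, -0.049 for Pfkp, 0.66 and 0.18 for Aldoa, -0.084 for Pgk1, -0.38 for Pgam1, 0.20 for Pkm, -0.056 for Bnip3l, 0.18 for P4ha1, 0.090 and 0.36 for P4ha2 and -0.72 for Ndrg1. Single Gapdh targets gave 0.021, 0.060, 0.11, 0.059, 0.30 and 0.016, and single Eno1 targets 0.17, 0.70, 1.05, 0.81 and 0.26. Leaving out each array in turn gave -0.14 to 0.12 for Aldoa, -0.085 to 0.064 for Tpi1, -0.19 to 0.41 for Pgk1, -0.00023 to 0.51 for Pgam1, -0.14 to 0.11 for Eno1, -1.09 to 0.014 for Slc2a3, -0.32 to 0.41 for Pfkfb4, -0.19 to 0.39 for Bnip3l, -0.058 to 0.55 for Ero1a and -0.15 to 0.20 for Ndrg1.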

Other observations

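Some members had a dimmer target whose reading differed from that of the target that stands for the gene. A Pfkp target read 75.2 and 107 with scramble siRNA against 281 and 169 with Men1 siRNA, giving a log2 change of 1.28 ± 0.41 (limma adjusted p = 0.286 over all targets), where the target that stands for Pfkp had 0.15. An Ndrg1 target lay under 100 on all 4 arrays, at 95.9 and 95.6 with scramble siRNA against 63.5 and 53.4 with Men1 siRNA. A Hk1 target read 129 and 78.5 with scramble siRNA against 46.6 and 88.4 with Men1 siRNA, both of the latter under 100. An Aldoa target of moderate brightness read 308 and 137 with scramble siRNA against 395 and 266 with Men1 siRNA, with overlapping groups. These targets were picked after their values were seen.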
